A study of Mus musculus with 9 samples.

Results

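The nuclear genes of cytochrome c oxidase (complex IV) and of ATP synthase (complex V) were followed in sorted SIX2 progenitors. A gene for a subunit of complex III was targeted for deletion in these cells. Members were all protein-coding genes of the count table whose symbol began with *Cox4* to *Cox8* or with *Atp5*, which gave 35 of 26858 genes, 18 for complex IV and 17 for ATP synthase. The symbols are those of the table, and 3 genes that share the name pattern but are not protein-coding were not members. *Cox7a2l*, *Atp5s* and *Atp5sl* match the pattern but do not encode subunits of the isolated enzymes, and they were counted as the rule says. Cells that expressed *Six2-eGFP/cre* were sorted by fluorescence-activated cell sorting from mouse kidneys at E18.5 (embryonic day), and their RNA was sequenced in 4 *Six2-Qpc+/-* control and 5 *Six2-Qpc-/-* mutant libraries. Both genotypes carried the bacterial artificial chromosome transgene in which the *Six2* promoter drives Cre fused to enhanced green fluorescent protein (eGFP). Mutants were homozygous for the floxed *Qpc* (*Uqcrq*) allele, whereas controls were heterozygous and therefore not wild-type. Recombination was limited to cells with *Six2* promoter activity and their descendants, and the sort kept cells that carried eGFP.

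Complex IV passes electrons from cytochrome c to oxygen. Its catalytic core is encoded in mitochondrial DNA, and the nuclear subunits around it include several that exist as tissue isoforms encoded by separate genes. ATP synthase uses the proton gradient to make ATP. A ring of c subunits in the membrane turns within it, a central stalk carries the rotation into the F1 head, and a peripheral stalk holds the head still. Kidney progenitors obtain energy from both respiration and glycolysis, and complex III, the target of the deletion, feeds complex IV through cytochrome c.

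Library totals were between 21040536 and 23986458 counts, and values are given as counts per 1000000 (CPM) of the normalized library size. *Uqcrq*, the targeted gene, was at 76.7 to 107 CPM in controls and at 16.4 to 28.2 CPM in mutants, without overlap (log2 fold change -2.14). On the first principal component, which held 38.9% of the variance, control replicate 76 and mutant replicate 74 lay nearest to the other genotype. Of 14990 genes tested with edgeR, 2226 passed an adjusted p of 0.05, which is 14.8% of the genes, with 1173 higher and 1053 lower in mutants. The labels do not state that the libraries came from separate animals, so p-values measure the spread between these libraries, which may be technical.

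Only *Cox4i2* passed the edgeR threshold among the members tested, and it fell. Of the 35 members, 30 had enough reads to be tested, and the 5 left out were tissue isoforms of complex IV. In complex IV, 1 of 13 tested genes fell and 0 rose, beside 14.8% of all genes called, 7.02% lower and 7.83% higher. The CPM of the genotypes did not overlap in 1 of the 13, *Cox4i2*, beside 15.2% of all genes. In ATP synthase, 0 of 17 passed the edgeR threshold. An unadjusted p under 0.05 was also found in 0 of the 17, beside 31.4% of all genes, and 0 passed with DESeq2 or limma-voom. The median log2 fold change, mutant over control, was 0.04 for complex IV and -0.03 for ATP synthase, next to -0.01 for all genes tested. These medians changed sign between alternatives, and ranged from -0.09 to 0.16 and from -0.09 to 0.09 over 9 alternatives, so no direction is given for either enzyme. Of the 29 genes that did not pass, 28 had a 95% interval that included 0, and *Cox7a2l* was the exception. All 29 intervals lay within a 2-fold change either way, and 25 lay within a 1.5-fold change. The adjusted p-values of these 29 genes in edgeR were between 0.0812 and 0.997.

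**Figure D1:**
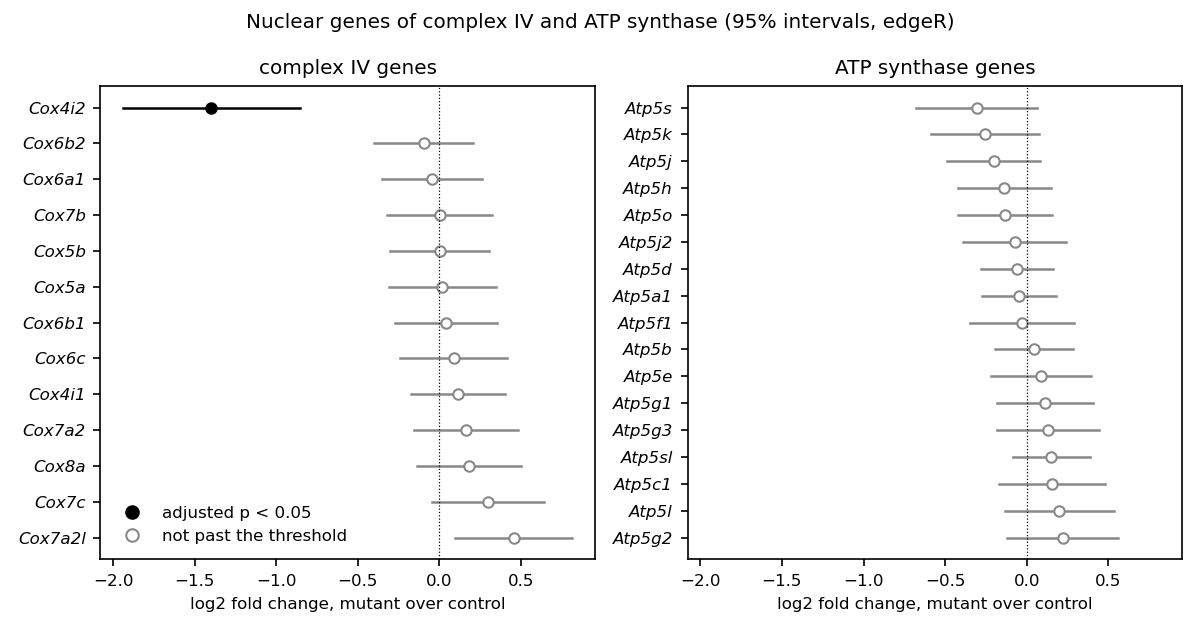
Fitted log2 fold change, mutant over control, of the 30 members tested, with complex IV genes on the left and ATP synthase genes on the right. Points are edgeR estimates, bars are 95% intervals, and the filled point passed the threshold. *Cox4i2* lies at -1.40, while the other estimates lie between -0.31 and 0.45.

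Complex IV subunit 4 is made from *Cox4i1* in most tissues and from *Cox4i2* mainly in lung and in the mural cells of small vessels, and it is the subunit through which ATP is known to inhibit the enzyme. The difference between these isoforms is shown in the last 30 codons before the stop, read from the GENCODE M21 annotation of build GRCm38, with capitals at the 22 positions where they differ.
Cox4i1: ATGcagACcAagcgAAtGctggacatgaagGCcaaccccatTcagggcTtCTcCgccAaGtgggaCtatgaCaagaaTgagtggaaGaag
Cox4i2: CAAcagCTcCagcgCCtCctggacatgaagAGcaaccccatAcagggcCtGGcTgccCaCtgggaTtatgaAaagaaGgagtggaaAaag
Over the 486 aligned coding bases the isoforms were 69.8% identical, and the longest identical run was 14 bases. *Cox4i2* (ENSMUSG00000009876, chromosome 2, 152754173 to 152765037, plus strand, mm10) shared 0 of its 739 windows of 50 bases with any other annotated transcript. Reads of one isoform are therefore unlikely to be placed on the other.

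*Cox4i2* was at 10.5, 8.29, 8.13 and 5.94 CPM in control replicates 71, 72, 73 and 76. In mutant replicates 74, 75, 77, 78 and 79 it was at 2.73, 2.83, 2.19, 4.23 and 3.58 CPM. The lowest control lay above the highest mutant, and the counts behind these values were 141 to 246 in controls and 43 to 86 in mutants. *Cox4i2* fell by 1.40 on the log2 scale (SE 0.25, 95% interval -1.94 to -0.86, edgeR adjusted p = 0.00433), a level 2.64-fold lower in mutants. The exact 2-sided permutation test gave p = 0.00794, the smallest that 4 against 5 libraries allow. *Cox4i2* passed the threshold in all 9 alternatives and with any library left out, with log2 fold changes of -1.53 to -1.26. In sorted bulk RNA, fewer cells that contain a transcript and less of it per cell cannot be told apart.

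*Cox4i1* did not follow. It was at 712, 498, 565 and 666 CPM in the controls and at 565, 653, 717, 760 and 608 CPM in the mutants, with wide overlap. Its log2 fold change was 0.11 (95% interval -0.17 to 0.40, edgeR adjusted p = 0.596). The gene (chromosome 8, 120668222 to 120674207, plus strand) shares 154 exonic bases with *Emc8* on the other strand, whose reads cannot be separated in unstranded libraries. *Cox4i2* made up 1.35% ± 0.323 (SD, n = 4) of the reads of this pair in controls and 0.471% ± 0.111 (SD, n = 5) in mutants. Their log2 ratio, which does not depend on library normalization, was 1.52 lower in mutants, without overlap (exact permutation test p = 0.00794, adjusted p = 0.0476 over 6 isoform pairs). *Cox4i2* was therefore a small fraction of subunit 4 transcripts in either genotype, and the fraction was 2.87-fold lower in mutants. With any library left out the difference was -1.71 to -1.37, but its adjusted p rose to between 0.0857 and 0.171, because the smallest attainable p also rises.

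**Figure D2:**
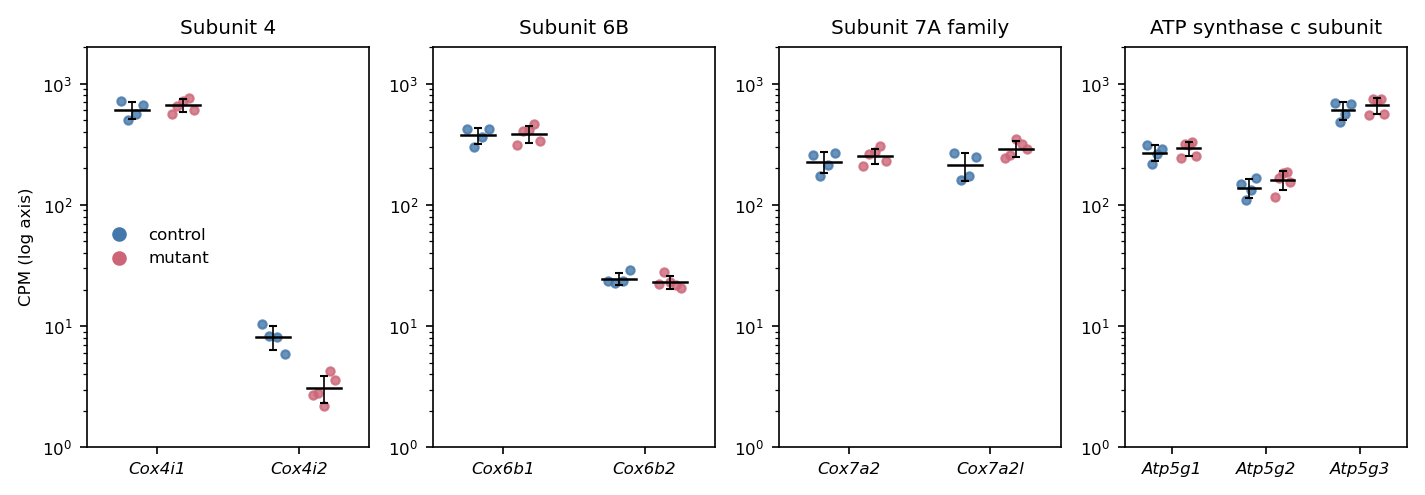
CPM (log axis) of the isoforms in 4 families, each point a library, with the mean and SD as bars. Control and mutant libraries of *Cox4i2* are apart, at 5.94 to 10.5 and 2.19 to 4.23 CPM, while those of the other isoforms overlap.

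Because *Cox4i2* is also known from mural cells, the levels of that cell type were set beside it. Of 9 mural and smooth muscle genes, 7 were tested, 1 rose and 1 fell, beside 7.83% of all genes higher and 7.02% lower. Of the 7, 4 were fitted above 0 and 3 below, with a median log2 fold change of 0.52. An unadjusted edgeR p under 0.05 was found in 5 of the 7, beside 31.4% of all genes. *Tagln*, *Abcc9* and *Notch3* were tested and did not pass. The summed level was 45.4 to 76.2 CPM in controls and 50.3 to 114 CPM in mutants. *Cspg4*, which encodes the pericyte proteoglycan NG2, was at 14.8, 17.6, 15.2 and 7.71 CPM in controls and at 9.32, 3.01, 1.89, 3.44 and 4.89 CPM in mutants (log2 fold change -1.61, edgeR adjusted p = 0.016). *Acta2*, smooth muscle actin, rose (1.38, edgeR adjusted p = 0.0485). *Kcnj8*, a potassium channel subunit of mural cells, was at 0.295 to 5.10 CPM in controls and 5.26 to 28.1 CPM in mutants, without overlap, but did not pass (2.19, edgeR adjusted p = 0.0587). *Rgs5* was at 1.09 to 7.87 CPM in controls and at 3.05 to 8.22 CPM in mutants, and *Higd1b* and *Myh11* had too few reads to be tested. The part of such cells in the *Cox4i2* result was not tested. *Ndufa4l2*, a paralog of the complex IV subunit NDUFA4 that is found in the same cells, was at 5.01 to 19.5 CPM in controls and 1.12 to 7.58 CPM in mutants, and did not pass (-1.44, edgeR adjusted p = 0.084).

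The other subunits of complex IV that are expressed in most tissues showed no call. The 6 genes *Cox4i1*, *Cox6a1*, *Cox6b1*, *Cox7a2*, *Cox7b* and *Cox8a* had log2 fold changes of -0.04 to 0.18. The 4 subunits with a single gene, *Cox5a* and *Cox5b* on the matrix side and *Cox6c* and *Cox7c* in the membrane, lay between 0.00 and 0.30. *Cox7c* had the largest value among them, 0.30 (edgeR adjusted p = 0.220), and passed with limma-voom alone (0.47, adjusted p = 0.022), and 22.1% of its windows of 50 bases also occur in other genes.

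The pair of subunit 6B, which faces the cytochrome c side, kept a similar ratio. *Cox6b1* was at 421, 299, 359 and 420 CPM in controls and at 310, 403, 416, 466 and 336 CPM in mutants (log2 fold change 0.04, edgeR adjusted p = 0.875). *Cox6b2*, known as the testis isoform, was at 23.4, 22.9, 23.5 and 29.0 CPM in controls and at 22.4, 27.7, 23.1, 21.8 and 20.6 CPM in mutants (-0.10, edgeR adjusted p = 0.687). Both genes overlapped widely between genotypes, and *Cox6b2* took 6.24% ± 0.764 of the pair's reads in controls and 5.73% ± 0.906 in mutants (SD, n = 4 and 5; exact permutation p = 0.381 for the log2 ratio, adjusted p = 0.457).

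In the subunit 7A family, *Cox7a2* encodes the common subunit and *Cox7a2l* a related protein (SCAF1) that joins complexes III and IV into supercomplexes. *Cox7a2* was at 259, 172, 212 and 266 CPM in controls and at 210, 260, 271, 303 and 230 CPM in mutants (log2 fold change 0.16, edgeR adjusted p = 0.490). *Cox7a2l* was at 268, 161, 171 and 247 CPM in controls and at 243, 256, 348, 317 and 287 CPM in mutants. The *Cox7a2l* groups overlapped at 243 to 268 CPM, with control replicates 72 and 73 lowest. The log2 fold change of *Cox7a2l* was 0.45 (95% interval 0.09 to 0.81, edgeR adjusted p = 0.0812, exact permutation p = 0.0635). It passed with DESeq2 (0.47, adjusted p = 0.0484), with limma-voom (0.69, adjusted p = 0.00382), with a length trend removed by edgeR offsets (0.51, adjusted p = 0.0206) and in edgeR without mutant replicate 74 (0.51, adjusted p = 0.0435). The first 3 of these called 21.2%, 32.5% and 17.6% of all genes. The log2 ratio of *Cox7a2l* to *Cox7a2* was 0.30 higher in mutants (exact permutation p = 0.0317, adjusted p = 0.0952), so neither measure passed after adjustment in the analysis chosen at the start.

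*Cox7a2l* (chromosome 17, 83501919 to 83514333, minus strand) shares 13.8% of its windows of 50 bases with *Gm6969*, a locus on chromosome 12 (24638669 to 24639010, minus strand). *Gm6969* held 12, 637, 606 and 16 reads in control replicates 71, 72, 73 and 76. In mutant replicates 74, 75, 77, 78 and 79 it held 10, 799, 23, 6 and 11 reads. The libraries thus fell into 3 with 606 to 799 reads on *Gm6969* and 6 with 6 to 23, and the 3 were not of the same genotype. Control replicates 72 and 73, the lowest for *Cox7a2l*, were among the 3. With the reads of both loci added, the level was 268, 186, 197 and 248 CPM in controls and 244, 291, 349, 317 and 288 CPM in mutants (log2 fold change 0.41, edgeR adjusted p = 0.0662, exact permutation p = 0.0397). This addition, made for 9 members with a copy elsewhere, was chosen after seeing the data and changed no call for them.

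**Figure D3:**
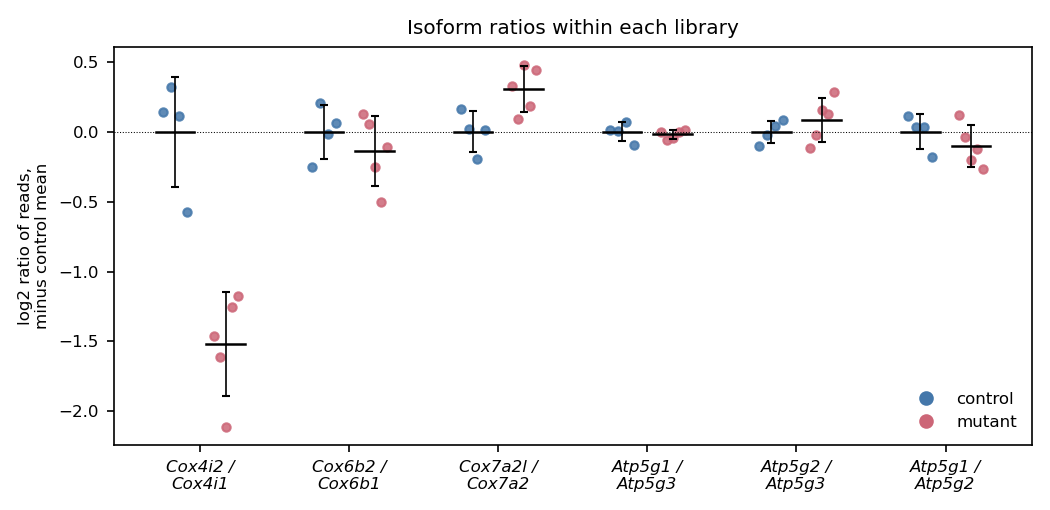
Log2 ratio of reads of 6 isoform pairs within each library, shown as the difference from the control mean, with the mean and SD as bars. The *Cox4i2* to *Cox4i1* ratio is lower by 1.52 in mutants, and the ratios of the *Atp5g* genes differ by at most 0.10.

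The remaining 5 isoforms were near the limit of detection. *Cox6a2*, the heart and skeletal muscle isoform of subunit 6A, had 2 reads in all controls, both in replicate 71, and 1, 2, 26, 13 and 16 reads in mutant replicates 74, 75, 77, 78 and 79. All mutant libraries had reads, mutant replicates 74 and 75 as few as the controls, and the ratio of the summed levels, mutant over control, was 25.9 with an exact 95% interval of 6.86 to 219 that covers counting error only. *Cox6a2* was removed by the filter on low counts and passed only without it (edgeR adjusted p = 0.0154). Of 8 skeletal and heart muscle genes, 3 were tested and *Tnnt2* rose (log2 fold change 1.73, edgeR adjusted p = 0.0272), beside 7.83% of all genes higher. The other 2 tested genes were fitted below 0, and the median of the 3 was -0.34. The summed level of the 8 genes, mostly *Des*, was 221 to 368 CPM in controls and 179 to 332 CPM in mutants. *Ckm* had reads in 1 library of each genotype. The part of muscle cells in the reads of *Cox6a2* was not tested. *Cox7a1*, its counterpart in subunit 7A, had 32 reads in each genotype. *Cox7b2* had 4 reads in controls and 3 in mutants, and *Cox8b* and *Cox8c* had 0 in controls, which allows up to 0.031 CPM, and 3 and 4 in mutants.

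In the F1 head of ATP synthase, *Atp5b*, the catalytic beta subunit, was at 2443 to 2957 CPM in controls and 2636 to 3197 CPM in mutants, and *Atp5a1*, the alpha subunit, at 1721 to 2001 and 1751 to 2031 CPM. The log2 fold changes of the 5 head genes, with *Atp5c1*, *Atp5d* and *Atp5e* for the central stalk, lay between -0.06 and 0.16. For *Atp5b* the 95% interval was -0.19 to 0.29, and for *Atp5a1* it was -0.27 to 0.18. The narrowest interval of all members was that of *Atp5d*, -0.28 to 0.16.

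The c-ring subunit is encoded by 3 genes, *Atp5g1*, *Atp5g2* and *Atp5g3*, whose precursors differ in the targeting peptide and whose mature protein is the same. The last 30 codons before the stop show how reads of the 3 genes can be told apart although the protein is one, with capitals at the 24 positions that differ in at least 1 gene (GENCODE M21, GRCm38).
Atp5g1: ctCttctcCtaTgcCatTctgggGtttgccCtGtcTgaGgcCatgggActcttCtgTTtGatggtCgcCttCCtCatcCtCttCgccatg
Atp5g2: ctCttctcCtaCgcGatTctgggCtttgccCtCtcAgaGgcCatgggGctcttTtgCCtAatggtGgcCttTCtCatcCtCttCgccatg
Atp5g3: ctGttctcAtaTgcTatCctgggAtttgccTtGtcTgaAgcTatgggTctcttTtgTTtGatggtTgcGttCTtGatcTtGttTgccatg
Over the last 228 coding bases, 58 positions and 53 of 76 codons differed between the genes, and all 53 differing codons were synonymous. Whole coding sequences were 70.7% to 76.7% identical in pairs, with no identical run over 21 bases.

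*Atp5g3* was the most abundant of the 3, at 689, 479, 556 and 684 CPM in controls and at 546, 740, 714, 741 and 556 CPM in mutants. *Atp5g1* was at 312, 216, 262 and 287 CPM in controls and at 245, 318, 310, 333 and 251 CPM in mutants. *Atp5g2* was at 148, 109, 132 and 167 CPM in controls and at 116, 168, 183, 186 and 156 CPM in mutants. All 3 genes overlapped between genotypes, with log2 fold changes of 0.13, 0.11 and 0.22 and edgeR adjusted p-values of 0.579, 0.613 and 0.366. Per length of the principal transcript, *Atp5g3* held 52.3% ± 0.697 of c subunit transcripts in controls and 51.9% ± 1.28 in mutants. *Atp5g1* held 28.1% ± 1.12 and 27.5% ± 0.647, and *Atp5g2* 19.5% ± 1.0 and 20.6% ± 1.73 (SD, n = 4 and 5). The shares of the 3 genes thus moved by about 1 percentage point or less, which is within their SD in at least 1 genotype. For the log2 ratios, the exact permutation test gave p = 0.571 for *Atp5g1* to *Atp5g3*, 0.373 for *Atp5g2* to *Atp5g3* and 0.294 for *Atp5g1* to *Atp5g2*. *Atp5g2* shares 38.3% of its windows of 50 bases with other genes, mostly *Gm10175*, and *Atp5g1* shares 11.1%, so their levels are less certain than that of *Atp5g3*, which shares 0.

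The 4 genes of the peripheral stalk, *Atp5f1* (subunit b), *Atp5h* (d), *Atp5j* (F6) and *Atp5o* (OSCP), were all fitted below 0, at -0.03, -0.14, -0.20 and -0.13, and 0 of 4 passed in edgeR. With 1 surrogate variable in the edgeR fit, *Atp5h* (-0.26, adjusted p = 0.0172) and *Atp5o* (-0.24, adjusted p = 0.0329) passed, beside 20.8% of all genes in that fit. *Atp5h* was at 293 to 397 CPM in controls and 259 to 365 CPM in mutants, and *Atp5o* at 294 to 446 and 295 to 378 CPM, so both overlapped widely. *Atp5o* shares 41.6% of its windows with other annotated genes, which include a second gene of the same name. *Atp5h* shares 19.9% and *Atp5f1* 14.3%. On the other strand, *Atp5f1* shares 337 exonic bases with *Wdr77* and *Atp5j* 397 with *Gabpa*, whose reads cannot be separated in unstranded libraries. Of the 3 other membrane subunits, *Atp5j2* (f), *Atp5k* (e) and *Atp5l* (g), the values were -0.07, -0.25 and 0.20. *Atp5s* (factor B) and *Atp5sl*, neither a subunit of the enzyme, had values of -0.31 (edgeR adjusted p = 0.243) and 0.15 (edgeR adjusted p = 0.374).

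Levels between genes were compared per kilobase of the principal transcript, since the gene length in the table is often that of the longest transcript and was 7.91 times the principal one for *Atp5g1* and 6.04 times for *Cox6c*. In complex IV the order of mean CPM per kilobase over all libraries was led by *Cox8a* (883), *Cox4i1* (857) and *Cox6a1* (796), with an SD of 106 to 152 within a genotype. Members tended to be high or low together in a library, so the SD between libraries does not decide the order of genes. The order within each library was not tested. *Cox6b1* (617) and *Cox6c* (610) followed, and *Cox7a2* (368) and *Cox7c* (356) formed a lower pair. *Cox5a* (87.8), *Cox6b2* (51.2) and *Cox4i2* (7.39) were lowest among the genes tested. In ATP synthase, *Atp5b* (1470) was highest, followed by *Atp5g3* (888) and *Atp5a1* (756), and *Atp5s* (18) and *Atp5sl* (30.5) were lowest. The subunit genes of one enzyme therefore differed over an order of magnitude in CPM per kilobase. Principal transcripts were chosen as the length after the data were seen.

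**Figure D4:**
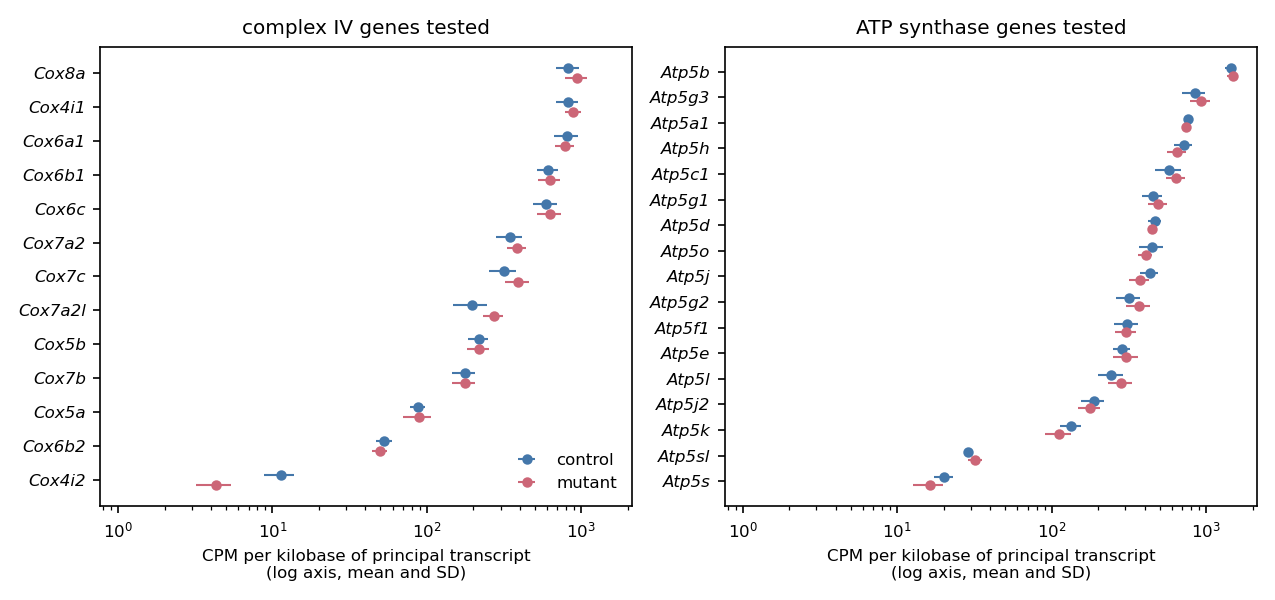
CPM per kilobase of principal transcript (log axis) of the tested members, with the mean and SD for each genotype. Control and mutant means lie furthest apart on this axis for *Cox4i2*, at 11.3 and 4.28.

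The members tended to be high or low together in a library of either genotype. Control replicate 72 had the lowest CPM of the controls in 27 of 30 tested members, and control replicate 71 the highest in 18 and replicate 76 in 12. Among mutants, replicate 78 was highest in 23 members and replicate 74 lowest in 19. The mean centred log2 CPM of the complex IV genes was -0.27 to 0.21 in controls and -0.22 to 0.28 in mutants, and that of ATP synthase genes -0.23 to 0.19 and -0.22 to 0.17. The ranges of the genotypes overlapped for both enzymes. In the same measure, control replicate 72 was the lowest control for complex I genes (-0.18) and for genes with cytosolic ribosome symbols (-0.41). Mutant replicate 78 was the highest mutant for both of these lists (0.16 and 0.36), so the pattern was not particular to the members. Without *Cox4i2*, the complex IV value was -0.35 to 0.14 in controls (mean -0.06) and -0.18 to 0.32 in mutants (mean 0.05), a difference of means below the pooled SD of 0.22. Without control replicate 72 the median log2 fold change was -0.04 for complex IV and -0.09 for ATP synthase. The members as a whole took 0.337% ± 0.0454 and 0.918% ± 0.0691 of all counts in controls for complex IV and ATP synthase, and 0.341% ± 0.0362 and 0.869% ± 0.0368 in mutants (SD, n = 4 and 5).

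**Figure D5:**
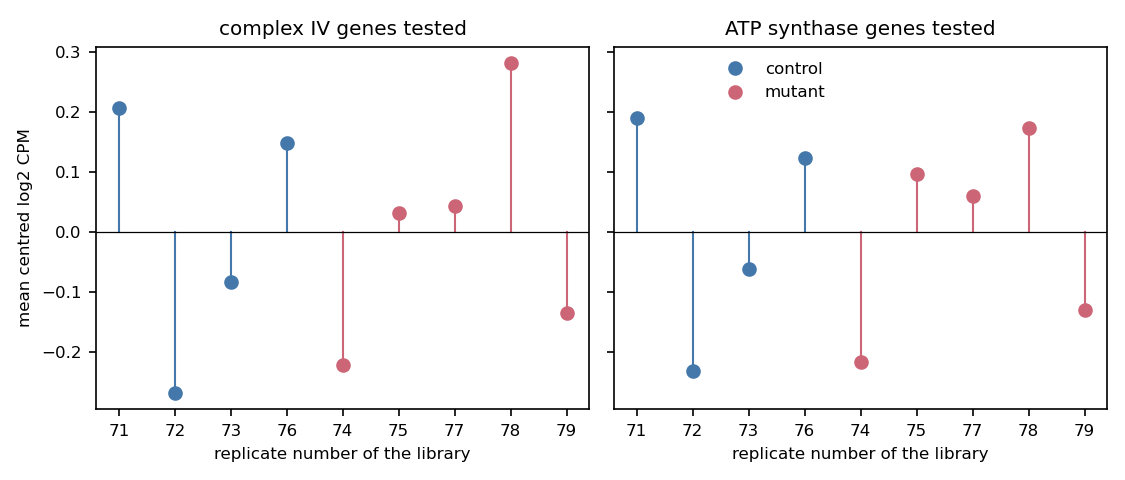
Mean centred log2 CPM of the tested complex IV genes (left) and ATP synthase genes (right) in each library, named by its replicate number. Replicate 72 is lowest in both panels, at -0.27 and -0.23, and control and mutant libraries overlap.

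Of the 5 genes encoded in mitochondrial DNA that complete these enzymes, 1 rose. *mt-Co1*, the catalytic subunit of complex IV, was at 3529 to 5130 CPM in controls and 5367 to 7617 CPM in mutants, without overlap (log2 fold change 0.63, edgeR adjusted p = 0.016). *mt-Co2*, *mt-Co3*, *mt-Atp6* and *mt-Atp8* did not pass and had values of 0.33, 0.06, -0.12 and 0.23. These genes were counted at far lower levels than *mt-Co1*. Windows shared with other loci were examined only for the members, so how completely these 4 genes were counted is not known. Over the libraries of both genotypes, *mt-Co2* was at 31.6 to 67.4 CPM and *mt-Co3* at 80.5 to 165 CPM. *mt-Atp6* was at 20.6 to 47.8 CPM, and *mt-Atp8* at 1.01 to 1.78 CPM, from 23 to 37 reads per library. Whether *mt-Co1* differed from these 4 genes was not tested.

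For genes outside the members, counts are read beside the shares of all genes tested, 7.83% higher and 7.02% lower. Of 27 complex IV assembly factors and partners, 0 rose and 1 fell, *Fastk* (-0.45, edgeR adjusted p = 0.0161), which belongs to a family of proteins that act on mitochondrial RNA, with a list median of 0.03. For NDUFA4, its paralog and cytochrome c (*Ndufa4*, *Ndufa4l2* and *Cycs*), 0 of 3 passed. For the inhibitor, assembly factors and further subunits of ATP synthase, among them *Atpif1*, *Tmem70* and *Usmg5*, 0 of 7 passed and the median was -0.07. In complex I, 0 of 35 subunit genes passed (median -0.03, without *Ndufa4* and *Ndufa4l2*, which the symbol pattern also matched), and in complex III beside *Uqcrq* 0 of 8 (median 0.04). Of 76 mitochondrial ribosome genes 1 rose (*Mrpl43*) and 1 fell (*Mrps25*), with a median of 0.08. Of 103 tested genes with cytosolic ribosome symbols 25 rose and 2 fell, with a median of 0.37. The symbol pattern also takes in 23 genes of the S6 kinase family, *Rps19bp1* and genes with a -ps symbol, of which *Rps6ka2* and *Rps6ka3* rose and *Rps6ka1* fell. Without these, 23 of 80 genes rose and 1 fell, with a median of 0.39. The difference between lists was not tested.

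The sorted cells carried progenitor markers in both genotypes. *Six2* was at 506 to 622 CPM in controls and 528 to 794 CPM in mutants, and 0 of 8 progenitor genes passed, where 7.83% of all genes tested were called higher and 7.02% lower. Of 7 genes of committed nephron cells 3 fell (*Wnt4*, *Lhx1* and *Ccnd1*), with a summed level of 327 to 645 CPM in controls and 244 to 352 CPM in mutants. Of 9 stromal genes 6 rose, at 102 to 190 and 255 to 676 CPM in sum, 1 of 4 myeloid genes rose, at 2.21 to 5.64 and 5.15 to 44.3 CPM, and 1 of 3 endothelial genes rose, at 2.41 to 5.09 and 3.49 to 6.62 CPM. Of the tested erythroid genes 0 of 1 passed, at 1.39 to 2.65 and 1.43 to 2.39 CPM in sum, and of ureteric bud genes 0 of 3, at 44.8 to 62.8 and 27.3 to 49.4 CPM. The part of these cell types in the *Cox4i2* result was not tested.

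The promoters of the members were searched for motifs of NRF1, ETS and YY1, factors known to bind at respiratory genes. RefSeq (GRCm38.p6) gave a window of 250 bases before to 50 after the start for 26 members, 13 of each enzyme, and not for *Cox4i2* or *Cox4i1*. Both strands were searched, and overlap between motifs was not examined. The NRF1 core GCGCATG was in 2 of 13 complex IV windows (*Cox5b* and *Cox6a1*) and in 3 of 13 ATP synthase windows (*Atp5g2*, *Atp5k* and *Atp5l*), and in 4.04% of all 27025 windows. The ETS core CCGGAAG was in 3 and 4 of 13 windows and in 9.12% of all, and the YY1 core ATGGCGG in 0 and 1 of 13 and in 4.19% of all. A match describes these letters only.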

How the data were processed

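RNA was sequenced from sorted *Six2-eGFP/cre* cells of 4 *Six2-Qpc+/-* and 5 *Six2-Qpc-/-* preparations at E18.5, with 1 library per sample. Per the labels, cDNA was amplified from low-input RNA, poly(A) selected and sequenced without strand information. The submitters' processing notes name STAR, DESeq2 and build mm10. The counter and the annotation are not given in the sources used here. The authors deposited read counts per gene and library, and these counts were used as deposited. The authors also deposited FPKM values, which were not used for the results, and columns of their own comparison (normalized signal, log2 fold change, p-value and adjusted p-value), which were not used.

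Genotypes were compared over 26858 genes by edgeR 4.0.16 in R 4.3.3 (filterByExpr, TMM, quasi-likelihood test with robust estimation, Benjamini-Hochberg over 14990 genes, threshold 0.05). CPM are counts per 1000000 of the normalized library size, and the SE was obtained from the log2 fold change and the F statistic. Isoform ratios were log2 of reads plus 0.5 and were compared by exact 2-sided permutation over 126 splits of 9 libraries for 6 of 11 pairs, those with at least 10 reads in every library of a genotype. Library totals set counting error, and intervals from read counts cover that error only. Alternatives were RLE and upper-quartile normalization, DESeq2 1.42.0, limma-voom 3.58.1 with sample quality weights, no filter beyond 1 count, at least 10 counts in every library, 1 surrogate variable (sva 3.50.0), a length trend removed, and each library left out. Adding reads of copies was chosen after seeing the data, as were the shared windows, overlaps, principal transcripts, sequence windows and roles. Values per library are given for members that passed, for those without overlap and for isoform pairs with a mean of at least 1 CPM. Members and lists were chosen with earlier results of these data known. Of the genes listed, *Sco2*, *Pet117*, *Cyct*, *Fmc1* and *Adgre1* were not analysed here. Python 3.11.15, SciPy 1.17.1, Biopython 1.88 and matplotlib 3.10.9 were used for tests, sequences and figures.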

Additional observations from a re-analysis of the deposited data

Results flagged for a closer look

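*Cox6b2* stood out in control replicate 76, at 29.0 CPM, far from the other controls, the nearest of which was at 23.5 CPM. This was the only value far from its group among 72 groups of libraries looked at, where chance alone gives about 1 group in 20, or 3.6. Without that library the log2 fold change of *Cox6b2* was 0.00.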

How the results depend on the processing

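The fall of *Cox4i2* kept its direction and passed in all 18 alternatives run, 9 of them with a library left out (log2 fold change -1.53 to -1.26). The number of genes called was 4868 with limma-voom and 1046 to 3136 with a library left out, against 2226. The number of complex IV members called was 3 with limma-voom, 2 without a filter, 2 with DESeq2, 2 with the length trend removed and 1 to 2 with a library left out, the 2 being without mutant replicate 74. The number of ATP synthase members called was 2 with 1 surrogate variable and 0 otherwise. With 1 surrogate variable the values of *Atp5g1*, *Atp5g3* and *Cox6b1* changed sign, to -0.015, -0.014 and -0.10. With a library left out, *Cox6b1* was -0.053 to 0.11, *Cox6b2* -0.17 to 0.0015, and the *Atp5g1* to *Atp5g3* ratio -0.051 to 0.0047, crossing 0. The *Cox4i2* to *Cox4i1* ratio was -1.71 to -1.37 with a library left out. The cause of these changes was not tested, except that leaving out a library raises the smallest attainable permutation p. No paired analysis was possible because the genotypes share no replicate number in the labels. Depth limits the 5 isoforms with few reads, and the spread between libraries limits the others, with 95% intervals 0.443 to 1.08 wide on the log2 scale.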
